A study of Danio rerio with 14 samples.

Results

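The genes described here encode the zona pellucida proteins of the zebrafish egg coat. They are the genes of the count table whose symbol starts with zp2, zp3 or zpax and whose total over the 14 libraries is at least 100 reads, which gives 21 of 32520 genes. All 21 genes with such a symbol reached that total. The lowest totals belonged to zp3d.2 (1197 reads) and zp2l2 (1509 reads) and the highest to zpax1 (87108 reads), and no gene of these names lay below the limit. The genes were selected on their total count in these same libraries, so their levels are given as a description. The set holds 5 zp2 genes, 2 zp2-like genes, 11 zp3 genes and 3 zpax genes.

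Egg coat proteins carry a zona pellucida domain, a module through which they assemble into extracellular filaments around the oocyte. In mammals ZP2 and ZP3 are main parts of the zona pellucida, while fishes carry many copies of both genes as well as zpax genes, a subfamily known from frogs, birds and fishes. In zebrafish these genes are known for their activity in the ovary, in growing oocytes, and not for a role in the gut.

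Polyadenylated RNA from zebrafish intestine was sequenced to compare fish with a goldfish agouti transgene with wild-type fish. The transgenic libraries, of genotype Tg(Xla.Eef1a1:Cau.Asip1)iim04, carry the goldfish gene Asip1, which encodes agouti signalling protein, behind the promoter of frog Eef1a1, a housekeeping gene promoter with broad activity. The wild-type libraries are of the Tubingen strain. Reads of the goldfish transgene itself were not analysed here. Sample titles end in H or M, letters that the labels do not explain, so that there were 3 transgenic H libraries (replicates 13, 14 and 16), 4 wild-type H libraries (5 to 8), 3 transgenic M libraries (9 to 11) and 4 wild-type M libraries (1 to 4). All transgenic fish share 1 named line, and age, sex and any pooling of fish were not given in the sources used here. The labels do not say that libraries came from separate fish, and the p-values below then reflect only how much these samples vary, in part perhaps for technical reasons.

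Total counts ran from 11792225 to 14091791 reads in the transgenic libraries and from 9847910 to 13727372 in the wild-type libraries. A list of enterocyte genes, the markers of the labelled tissue, took 1.097% to 2.27% of counts in 12 libraries. In wild-type H replicates 6 and 7 it took 0.0358% and 0.490%, below all other libraries. On this list replicate 6 goes against the label of its tissue, and replicate 7 does so in part. These libraries also had the most egg coat reads. Smooth muscle genes were low in replicate 6 (0.0210%) but not in replicate 7 (0.256%), against 0.0515% to 0.249% in the other 12 libraries. For the egg coat genes, genotype within H, genotype averaged over H and M, and H against M are given with and without wild-type H replicates 6 and 7. Tests of the other genes and gene lists are given from all libraries only.

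Egg coat reads were concentrated in 4 of the 14 libraries. The 21 genes together held 7497, 54 and 17 reads in transgenic H replicates 13, 14 and 16, or 0.0584%, 0.000458% and 0.000121% of the totals. In wild-type H replicates 5, 6, 7 and 8 they took 0.00112%, 3.51%, 0.616% and 0.144%, or 116, 377743, 62027 and 19110 reads. The transgenic M libraries held 10 to 16 egg coat reads each, and the wild-type M libraries held 12 to 38. Within H the genotypes overlapped, because transgenic H replicate 13 lay above wild-type H replicate 5. Exact 95% binomial intervals on these shares, which cover counting error only, ran from 0.0571% to 0.0597% in transgenic H replicate 13 and, for wild-type H replicate 6, from 3.496% to 3.52%. In bulk RNA, fewer cells of a type and less RNA per cell cannot be told apart.

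**Figure D1:**
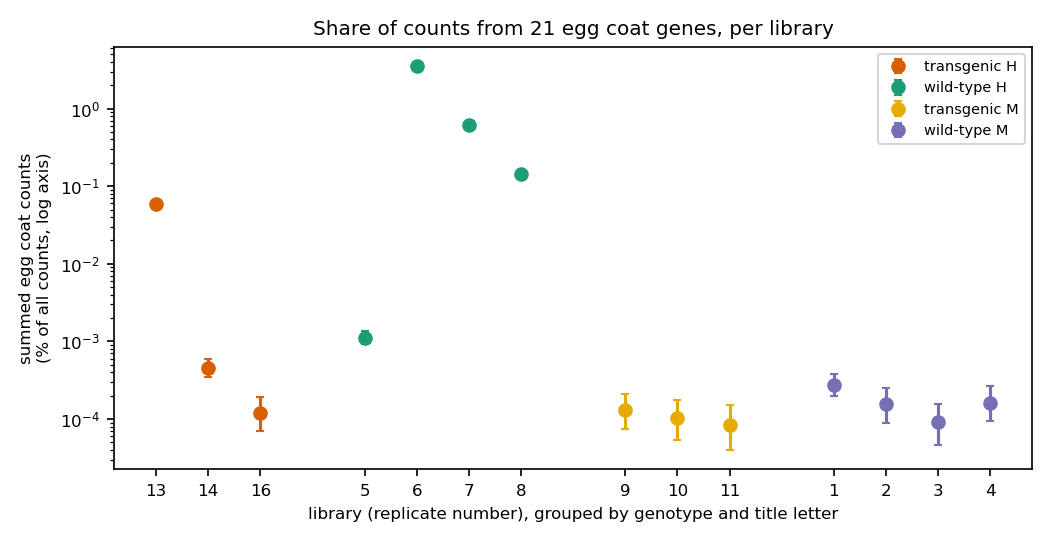
Each point is 1 library, placed by group, and its height is the percentage of all counts that fell on the 21 egg coat genes, on a log axis, with exact 95% binomial intervals as bars. Transgenic H replicate 13 (0.0584%) and wild-type H replicates 6, 7 and 8 (3.51%, 0.616% and 0.144%) stand far above the M libraries, while the other 3 H libraries lie at 0.00112% or less.

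On the CPM scale, which divides reads by the library total after TMM scaling, the summed level was 230.5 ± 393 in transgenic H, 9920 ± 16330 in wild-type H, 1.01 ± 0.165 in transgenic M and 1.68 ± 0.751 in wild-type M (SD, n = 3, 4, 3 and 4). The SD exceeded the mean in both H groups. Summed CPM of wild-type H replicate 6 was 8.72 times that of replicate 7, which in turn was 2.75 times that of replicate 8. Both ratios depend on the TMM factor, which was 1.57 in replicate 7, against 1.03 and 1.01 in replicates 6 and 8. Without TMM scaling the summed CPM of wild-type H replicates 6, 7 and 8 was 35230, 6180 and 1441. In transgenic H, replicate 13 lay 122 times above replicate 14. In wild-type H replicate 6, zpax1 was the 6th most counted gene of the library, and 11 of the 21 genes were among the 100 most counted. It ranked 1140th in transgenic H replicate 13, against 83rd in wild-type H replicate 7 and 542nd in wild-type H replicate 8.

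The 3 zpax genes included the 2 most counted members. zpax1 (ENSDARG00000069251) had 123, 0.834 and 0.339 CPM in transgenic H replicates 13, 14 and 16, against 2.01, 6534, 675 and 232 CPM in wild-type H replicates 5, 6, 7 and 8. zpax4 (ENSDARG00000079034) had 85.9, 0.417 and 0 CPM in transgenic H replicates 13, 14 and 16, against 1.58, 4555, 463 and 166 CPM in wild-type H replicates 5, 6, 7 and 8. zpax2 (ENSDARG00000017188) had 6.21, 0 and 0 CPM in transgenic H replicates 13, 14 and 16, against 0, 301, 30.8 and 12.3 CPM in wild-type H replicates 5, 6, 7 and 8. All 3 were highest in wild-type H replicate 6 and next highest in replicate 7. No zpax gene separated the genotypes, since transgenic H replicate 13 lay above wild-type H replicate 5 for each. zpax1 had 3, 4 and 2 reads in transgenic M replicates 9, 10 and 11, against 12, 6, 7 and 7 in wild-type M replicates 1, 2, 3 and 4. zpax1 was thus the only member besides zp3b with a read in every library. By contrast zpax4 had 1 read in all transgenic M libraries together and 1 read in all wild-type M libraries together, and zpax2 had 0 reads against 1.

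The zp3 genes, relatives of mammalian ZP3, are the most numerous. zp3b (ENSDARG00000039828) had 52.9, 0.938 and 0.508 CPM in transgenic H replicates 13, 14 and 16, against 0.845, 2730, 320.5 and 129.8 CPM in wild-type H replicates 5, 6, 7 and 8. zp3 (ENSDARG00000114958) had 38.99, 0.313 and 0 CPM in transgenic H replicates 13, 14 and 16, against 0.845, 2672, 337 and 129.5 CPM in wild-type H replicates 5, 6, 7 and 8. zp3a.1 (ENSDARG00000042129) had 50.8, 0.208 and 0.17 CPM in transgenic H replicates 13, 14 and 16, against 0.422, 2644, 309 and 124 CPM in wild-type H replicates 5, 6, 7 and 8. For each of the 3, transgenic H replicate 13 lay below wild-type H replicates 6, 7 and 8 and above wild-type H replicate 5. zp3a.2 (ENSDARG00000042130) had 56.7, 0.625 and 0.0847 CPM in transgenic H replicates 13, 14 and 16, against 1.69, 2574, 296 and 117 CPM in wild-type H replicates 5, 6, 7 and 8. zp3e (ENSDARG00000016908) had 52.6, 0.625 and 0 CPM in transgenic H replicates 13, 14 and 16, against 1.37, 2495, 297 and 108 CPM in wild-type H replicates 5, 6, 7 and 8. zp3.2 (ENSDARG00000115457) had 68.02, 0.104 and 0.0847 CPM in transgenic H replicates 13, 14 and 16, against 0.528, 1996, 243 and 86.5 CPM in wild-type H replicates 5, 6, 7 and 8. The same order of libraries held for these 3 genes. zp3f.1 (ENSDARG00000038720) had 31.96, 0.104 and 0 CPM in transgenic H replicates 13, 14 and 16, against 0.317, 939, 113 and 21.5 CPM in wild-type H replicates 5, 6, 7 and 8. zp3c (ENSDARG00000092919) had 12.6, 0.104 and 0 CPM in transgenic H replicates 13, 14 and 16, against 0.106, 477, 48.8 and 18.1 CPM in wild-type H replicates 5, 6, 7 and 8. For zp3f.1, unlike zp3c, transgenic H replicate 13 lay above wild-type H replicate 8.

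The remaining 3 zp3 genes had the fewest reads among the zp3 genes. zp3d.1 (ENSDARG00000040081) had 4.75, 0.313 and 0 CPM in transgenic H replicates 13, 14 and 16, against 0.211, 226, 23.8 and 7.87 CPM in wild-type H replicates 5, 6, 7 and 8. zp3f.2 (ENSDARG00000054313) had 2.92, 0.104 and 0.0847 CPM in transgenic H replicates 13, 14 and 16, against 0.211, 114, 12.7 and 4.65 CPM in wild-type H replicates 5, 6, 7 and 8. zp3d.2 (ENSDARG00000070178) had 2.46, 0 and 0 CPM in transgenic H replicates 13, 14 and 16, against 0, 87.3, 8.88 and 4.799 CPM in wild-type H replicates 5, 6, 7 and 8. Again wild-type H replicate 6 was highest for each. In the M libraries zp3b was the only zp3 gene with a read in all 7. zp3b had 2, 2 and 2 reads in transgenic M replicates 9, 10 and 11, against 3, 2, 2 and 5 in wild-type M replicates 1, 2, 3 and 4. zp3a.2 had 5, 1 and 2 reads in transgenic M replicates 9, 10 and 11, against 4, 0, 1 and 1 in wild-type M replicates 1, 2, 3 and 4. zp3e had 1, 0 and 0 reads in transgenic M replicates 9, 10 and 11, against 6, 4, 1 and 0 in wild-type M replicates 1, 2, 3 and 4. Reads of zp3e were thus spread over 4 of 7 M libraries, whereas zp3.2 and zp3f.1 had 0 reads in all 7. zp3d.1 had 1, 1 and 0 reads in transgenic M replicates 9, 10 and 11, against 1 in wild-type M replicate 2 and 0 in the other wild-type M libraries. zp3d.2 had 3 reads in transgenic M replicate 10, against 2 in wild-type M replicate 4, and zp3c had 2 in transgenic M replicate 11, against 1 and 2 in wild-type M replicates 1 and 2. zp3, zp3a.1 and zp3f.2 had 0 reads in transgenic M, against 2, 1 and 3 reads in wild-type M. At 0 reads, a library allows a share of up to 3 reads of its total, between 2.185e-05% and 3.046e-05% in the M libraries.

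The zp2 genes, relatives of mammalian ZP2, form a group of 5. zp2.2 (ENSDARG00000105346) had 45.9, 0.417 and 0 CPM in transgenic H replicates 13, 14 and 16, against 0.422, 1595, 194 and 94.7 CPM in wild-type H replicates 5, 6, 7 and 8. zp2.3 (ENSDARG00000090237) had 6.57, 0 and 0 CPM in transgenic H replicates 13, 14 and 16, against 0.317, 1083, 128 and 37.8 CPM in wild-type H replicates 5, 6, 7 and 8. zp2.5 (ENSDARG00000086522) had 4.38, 0.104 and 0.0847 CPM in transgenic H replicates 13, 14 and 16, against 0.739, 911, 125 and 45.9 CPM in wild-type H replicates 5, 6, 7 and 8. Transgenic H replicate 13 lay below wild-type H replicates 6, 7 and 8 for each of them. zp2.6 (ENSDARG00000091409) had 2.01, 0 and 0 CPM in transgenic H replicates 13, 14 and 16, against 0.106, 685, 87.8 and 18.2 CPM in wild-type H replicates 5, 6, 7 and 8. zp2.1 (ENSDARG00000086352) had 2.1, 0 and 0 CPM in transgenic H replicates 13, 14 and 16, against 0.211, 358, 52.5 and 12.97 CPM in wild-type H replicates 5, 6, 7 and 8. Per length, zp2.2 stood at 29.5 FPKM in transgenic H replicate 13, beside 4.15 for zp2.3, 2.64 for zp2.5, 1.27 for zp2.6 and 1.33 for zp2.1. All 5 zp2 genes had 0 reads in all 3 transgenic M libraries and in wild-type M replicates 2, 3 and 4, while wild-type M replicate 1 held 7 reads of them. The 2 zp2-like genes differed in read number. zp2l1 (ENSDARG00000055415) had 28.9, 0.417 and 0.0847 CPM in transgenic H replicates 13, 14 and 16, against 0.317, 1214, 157 and 58.5 CPM in wild-type H replicates 5, 6, 7 and 8. zp2l2 (ENSDARG00000004898) had 4.47, 0 and 0 CPM in transgenic H replicates 13, 14 and 16, against 0, 113, 10.3 and 3.97 CPM in wild-type H replicates 5, 6, 7 and 8. For zp2l2 transgenic H replicate 13 lay above wild-type H replicate 8. zp2l1 and zp2l2 had 3 and 4 reads in the transgenic M libraries together, against 0 in the 4 wild-type M libraries.

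**Figure D2:**
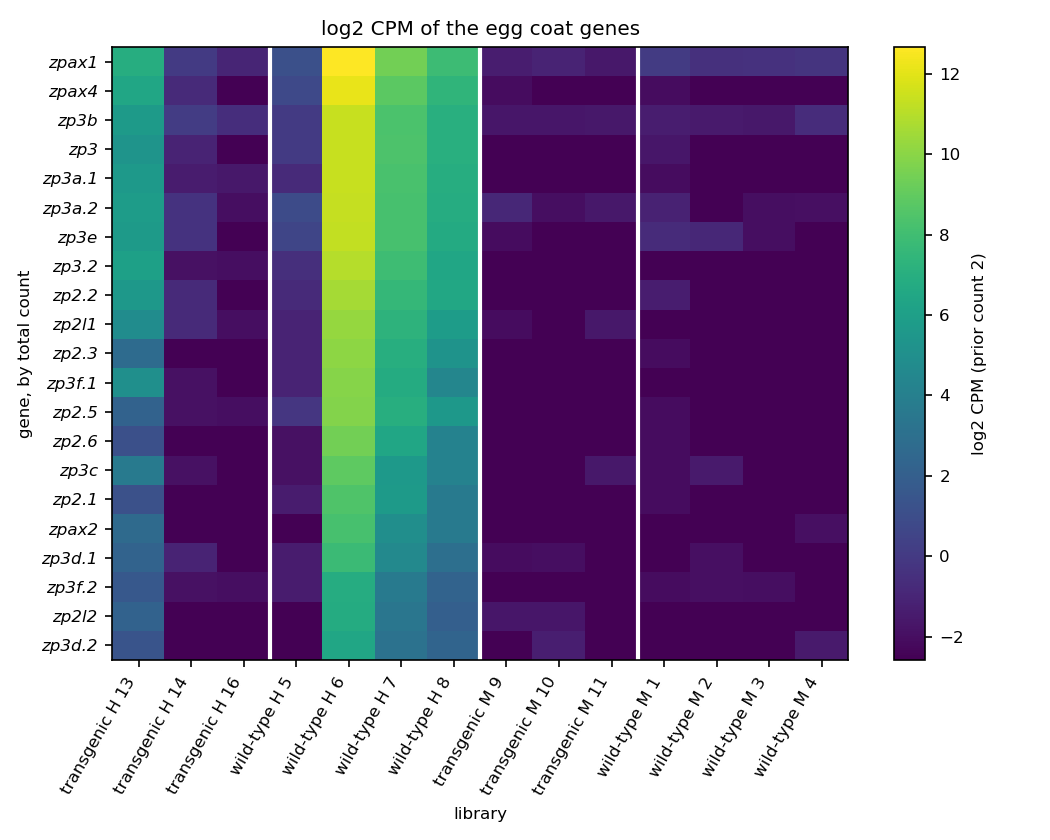
Rows are the 21 egg coat genes in order of total count, columns are the 14 libraries, and colour is log2 CPM with a prior count of 2. The bright columns are transgenic H replicate 13 and wild-type H replicates 6, 7 and 8, and the M libraries are near the level of 0 reads for nearly every gene.

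Between genes, levels were compared per length, as the deposited FPKM, which divides reads by gene length and library total. In wild-type H replicate 6 the order was led by zpax1 (2233 FPKM), zp3 (2051), zp3a.1 (1963) and zp3a.2 (1841), and closed by zpax2 (71.85) and zp3d.2 (56.6). Transgenic H replicate 13 was led by zp3.2 (35.9 FPKM), zpax1 (35.2) and zp3a.2 (33.9). The order among the leaders varied between libraries and is not resolved: zpax1 was 2nd in transgenic H replicate 13, against 1st, 2nd and 4th in wild-type H replicates 6, 7 and 8. zp3 was 6th in transgenic H replicate 13, against 2nd, 1st and 1st in those wild-type libraries. zpax4 lay below zpax1 in each of the 4 libraries, at 22.4 against 35.2 FPKM in transgenic H replicate 13 and at 1426 against 2233 FPKM in wild-type H replicate 6.

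The make-up of the egg coat reads was compared in the 4 libraries that had at least 1000 of them. zpax1 took 18.0% of egg coat reads in transgenic H replicate 13, against 19.0%, 17.2% and 16.2% in wild-type H replicates 6, 7 and 8. The ratio of zpax4 to zpax1 reads was 0.696 in transgenic H replicate 13, against 0.697, 0.687 and 0.715 in wild-type H replicates 6, 7 and 8. The zpax genes together made up 31.5% in transgenic H replicate 13, against 33.2%, 29.7% and 28.6% in those wild-type libraries. The zp3 genes together made up 54.7%, against 49.4%, 51.1% and 52.4%.

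Transgenic H replicate 13 differed from all 3 wild-type libraries in the balance of some close copies and not of others. Of the 21 genes, 7 had a smaller share of egg coat reads there than in any of the 3 wild-type libraries, 12 had a larger one, and 2, zpax1 and zpax4, lay within the wild-type range. The exact 95% interval lay clear of all 3 wild-type intervals for 5 of the smaller shares (zp3, zp2.3, zp2.5, zp2.6 and zp2.1) and for 4 of the larger ones (zp3.2, zp3f.1, zp3c and zp2l2), and overlapped at least 1 of them for the other 12 genes. These intervals cover counting error only. Shares within a library depend on each other, because a smaller share of some genes raises the shares of the rest. The shares outside the wild-type range are therefore not all separate differences. Relative to wild-type H replicate 6, the 4 larger shares with a clear interval were 1.325 (zp3c) to 1.99 (zp2l2) times as high. How much of these rises comes from the smaller shares was not tested. The ratio of zp3 to zp3.2 reads was 0.573 (exact 95% interval 0.508 to 0.646), against 1.34, 1.385 and 1.498 in wild-type H replicates 6, 7 and 8. For zp2.6 over zp2.2 it was 0.0437 (0.0272 to 0.0670), against 0.429, 0.454 and 0.192. For zp2.5 over zp2.2 it was 0.0954 (0.0694 to 0.129), against 0.571, 0.645 and 0.485. The ratio of zp3a.1 to zp3a.2 was shifted less, at 0.895 (0.797 to 1.006) against 1.03, 1.05 and 1.05. Its interval lay below that of wild-type H replicate 6 (1.011 to 1.044) and overlapped those of replicates 7 and 8. For zp3d.2 over zp3d.1 there was no clear gap, at 0.519 (0.3135 to 0.842) against 0.387, 0.372 and 0.6095. The ratio of zp3f.2 to zp3f.1 was 0.0914 (0.0616 to 0.1315), against 0.122, 0.112 and 0.216, again without a clear gap. The order of genes was taken from a RefSeq table of another build, GRCz12tu. In it zp3 lies beside zp3.2, zp2.2 beside zp2.3, and zp2.6, zp2.1 and zp2.5 in 1 run. The pairs with a smaller gap or no clear gap are neighbours too: zp3a.1 and zp3a.2, zp3d.1 and zp3d.2, and zp3f.1 and zp3f.2. By contrast zp2.2 is not in the run of zp2.5 and zp2.6. The neighbours zp2.3 and zp2.2 did show a gap. Their ratio was 0.143 (0.110 to 0.1835), against 0.679, 0.6625 and 0.399 in wild-type H replicates 6, 7 and 8. The part of gene order in these ratios was not tested. Reads of near-identical neighbours may be split or lost in counting, so these ratios are uncertain, and with 1 transgenic library they compare libraries and not genotypes.

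**Figure D3:**
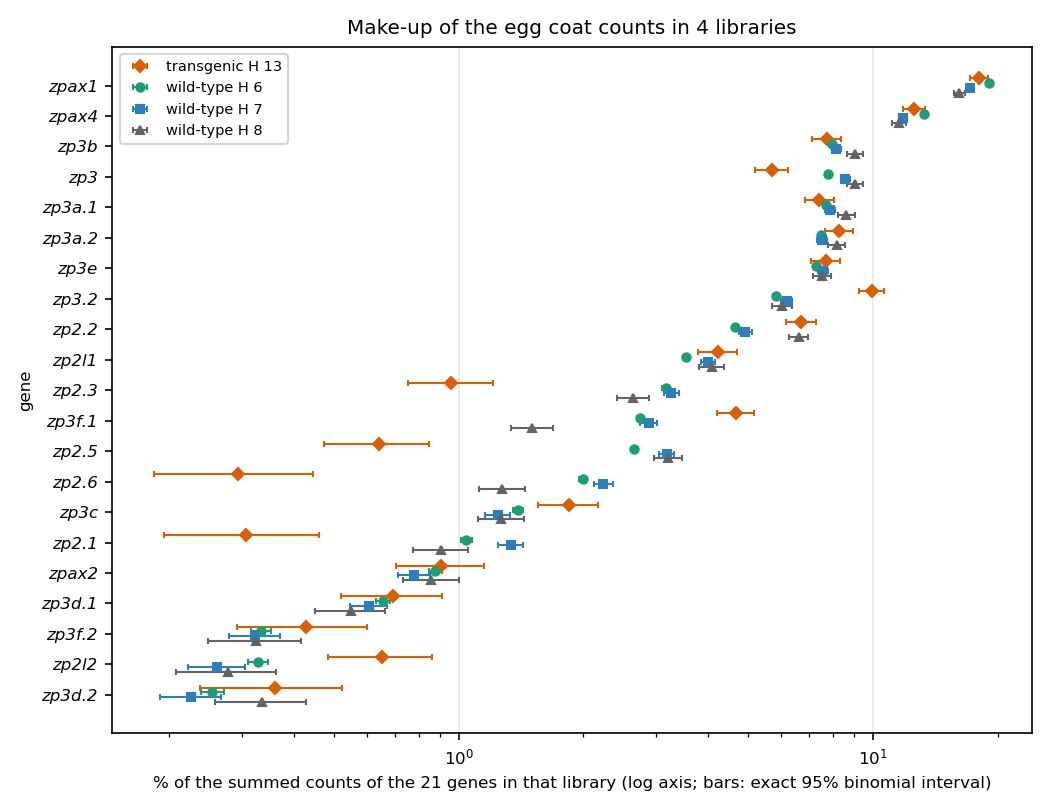
For each gene, the percentage of a library's egg coat reads that it took is shown on a log axis for transgenic H replicate 13 and wild-type H replicates 6, 7 and 8, with exact 95% binomial intervals. The genes zp2.3, zp2.5, zp2.6 and zp2.1 sit to the left in transgenic H replicate 13 and zp3.2, zp3f.1 and zp2l2 to the right.

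The few reads of the 7 M libraries, pooled over both genotypes, had another make-up. The intervals below take pooled reads as independent and cover counting error only, not the spread between libraries. Wild-type M replicate 1 alone gave 38 of these reads. Of 121 egg coat reads in the 7 M libraries together, 41 were zpax1 (33.9%, exact 95% interval 25.5% to 43.1%), against 19.0% in wild-type H replicate 6. Only 2 were zpax4 (1.65%, 0.201% to 5.84%), against 13.3%. zp3b gave 18 reads, zp3a.2 14 and zp3e 12, and the other 17 genes gave 5 or fewer each. zp3.2 and zp3f.1 had 0 of 121 reads, with an exact upper bound of 3.003%, against 5.82% and 2.74% in wild-type H replicate 6. The bound for zp3f.1 takes in the share of that library, so no difference was detectable for it. In wild-type H replicate 5, zpax4 had 15 of 116 reads (12.9%, 7.42% to 20.4%).

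Genotype within the H libraries was compared with edgeR's quasi-likelihood test over 18619 genes, with Benjamini-Hochberg adjustment and a threshold of 0.05. All 21 genes passed the filter on low counts, through the H libraries in which they are high, so the counts and medians over them are a description and support no difference. All 21 fitted log2 fold changes were below 0 in transgenic H relative to wild-type H, and none passed the test: 0 of 21 were called, where 1.15% of all genes were called in either direction and 0.435% as lower. The log2 fold changes ran from -8.17 (zp2.6) to -4.40 (zp2l2), with a median of -5.35 against -0.17 over all genes tested, and standard errors of 1.80 to 2.80. Adjusted p-values lay between 0.121 and 0.319. At an unadjusted p under 0.05 the test marked 16 of 21, where it marked 16.9% of all genes as lower. For zpax1 the log2 fold change was -5.48 ± 2.24 (SE, edgeR adjusted p = 0.170), and for zp3b -5.46 ± 2.06 (edgeR adjusted p = 0.154).

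None of the 21 genes separated the 3 transgenic from the 4 wild-type H libraries, where 6.03% of all genes did so as lower. DESeq2's Wald test called 5 of them lower, namely zp2.5, zp3a.2, zp3b, zp3f.2 and zpax1, where it called 6.62% of all genes lower. The size of the difference rested on single libraries. Without wild-type H replicates 6 and 7, which had the lowest shares of enterocyte reads, the median log2 fold change was -1.56. In that fit edgeR called 0 of 21, where it called 1.0% of all genes lower. At an unadjusted p under 0.05 it marked 1, where 7.07% of all genes were marked as lower. The part of the low enterocyte share in the difference was not tested. Without wild-type H replicate 6 alone, the fitted change of zp3b was -3.02. Without wild-type H replicate 5, the low wild-type library, 4 were called (zp2.1, zp2.5, zp2.6 and zp3d.1), where 3.63% of all genes were called lower, with a lowest edgeR adjusted p of 0.0412 (zp2.6, whose adjusted p ran from 0.0412 to 0.308 with 1 library left out). Without transgenic H replicate 13 the fitted change of zpax1 was -11.49. Scaling by library totals alone shifted the median of all genes to -0.60, and the genes called over the whole table split as 87 higher and 146 lower, against 133 and 81 with TMM.

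**Figure D4:**
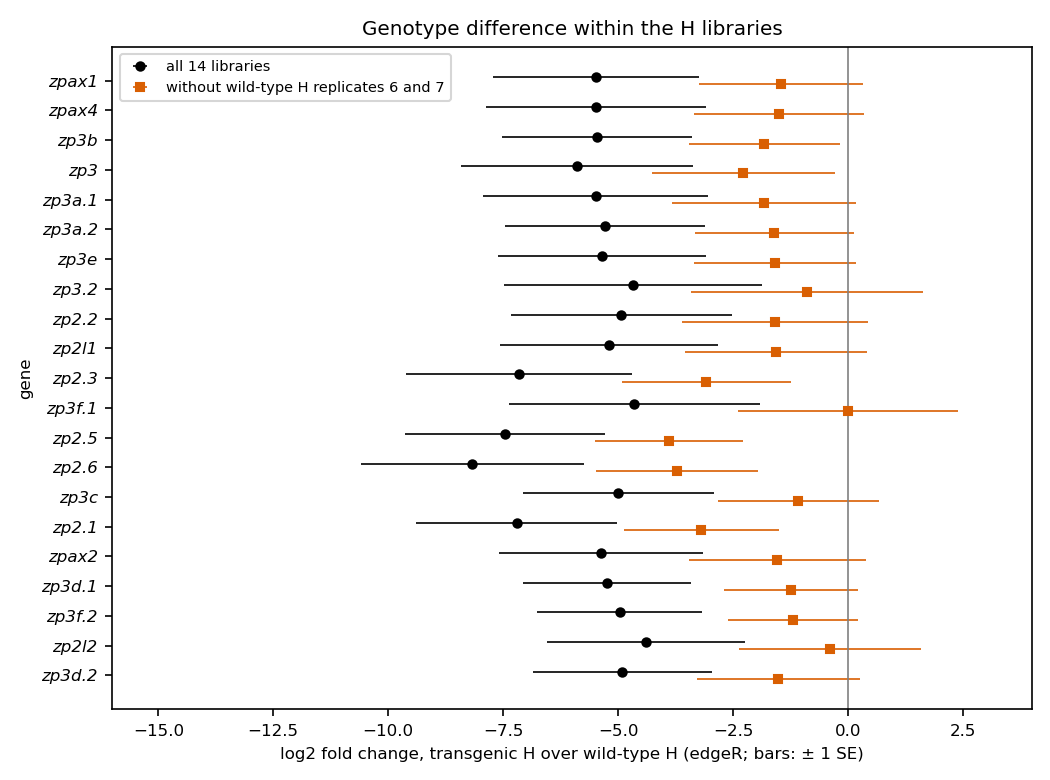
Points are edgeR log2 fold changes of transgenic H over wild-type H for the 21 genes, with bars of 1 SE, from all 14 libraries and from the fit without wild-type H replicates 6 and 7. With all libraries the values lie between -8.17 and -4.40, and without replicates 6 and 7 their median is -1.56.

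With genotype averaged over H and M, edgeR called 0 of 21 genes, where 4.21% of all genes were called, and the lowest adjusted p was 0.235. At an unadjusted p under 0.05 it marked 2, zpax1 and zp3e, where 11.4% of all genes were marked as lower. DESeq2 called zpax1 alone, where it called 4.62% as lower. Without transgenic H replicate 13, edgeR called zpax1 (adjusted p = 0.0465, in a range of 0.0465 to 0.398 with 1 library left out), where 1.25% of all genes were called lower. The median log2 fold change of the 21 was -3.48 with all libraries and -1.47 without wild-type H replicates 6 and 7. In the fit without those replicates 19 of 21 were below 0. It called 0, with 0 at an unadjusted p under 0.05, while 4.06% of all genes were called lower. With all libraries the standard errors ran from 1.46 to 14894 (zp3.2, with 0 reads in every M library). For members with 0 reads in a whole M group, the M part of the average is not measurable. The medians therefore describe the fit and are not an estimated effect.

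H was compared with M in the same fit. The 21 genes met the limit on total reads and the filter on low counts through the H libraries, which hold all but 121 of their reads. The counts of members in this comparison are therefore drawn from the values that selected them, and nothing is read from them or from the background beside them. Relative to M, all 21 fitted changes were above 0 in H, but edgeR called 0 of 21, and 0.0% of all genes, with adjusted p-values of 0.178 to 0.306. At an unadjusted p under 0.05 it marked 21 of 21, where 6.62% of all genes were marked as higher. DESeq2 called 19 of 21 higher, all but zp2l2 and zp3d.2, where it called 1.77% of all genes higher. Without wild-type H replicate 5, edgeR called 17 of 21, where 0.917% of all genes were called higher, with a lowest adjusted p of 0.0396 (for zpax1 the range with 1 library left out was 0.0396 to 0.900). Without wild-type H replicates 6 and 7 it called 0 of 21, and 0.0% of all genes, and marked 21 at an unadjusted p under 0.05, where 3.37% of all genes were marked as higher. In transgenic libraries, 6 of 21 genes were higher in every H than in every M library, where 3.56% of all genes were. In wild-type libraries this held for 17 of 21, where 3.23% of all genes were.

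Summed over the libraries of a group, the share of counts that fell on zp3b was 94.8 times as high in transgenic H as in transgenic M (exact 95% interval 43.3 to 259), and 3259 times as high in wild-type H as in wild-type M (1865 to 6307). These intervals take pooled reads as independent and cover counting error only, not the spread between libraries. Of the zp3b reads, 579 of 594 in transgenic H came from replicate 13, and 30061 of 36855 in wild-type H came from replicate 6. Without those libraries, a setting chosen after seeing the data, the ratio for zp3b was 3.58 in the transgenic libraries (1.31 to 11.3, from 15 reads in H and 6 in M) and 793 in the wild-type libraries (453.5 to 1535). In those transgenic libraries zp3e also had an interval above 1 (8.59, 1.04 to 395). It came from 6 reads in transgenic H replicate 14, 0 in replicate 16 and 1 in transgenic M, so it rests on 1 library. For every other member with reads in transgenic M, the interval took in 1. The ratio was 1.91 (0.74 to 5.13) for zpax1 and 1.25 (0.387 to 3.955) for zp3a.2. zp3.2, with 0 reads in every M library, was at least 238-fold higher in transgenic H and at least 9542-fold higher in wild-type H, against a floor of 3 reads over the group. Without transgenic H replicate 13, zp3.2 had 2 reads in transgenic H and no fold is given, and without wild-type H replicate 6 it was at least 2332-fold higher in wild-type H. The difference between the genotype effects in H and in M was called for 0 of 21 genes by edgeR, with 0 at an unadjusted p under 0.05, and for 0 of 21 by DESeq2. Over all genes edgeR called 0.0% and DESeq2 0.129%, and 6.9% were marked by edgeR at an unadjusted p under 0.05. Members with 0 reads in a whole M group, such as zp3.2 and zp2.6, have no measurable genotype effect in M. Standard errors of the difference in edgeR ran from 2.91 to 36613 (zp3.2). Nothing is therefore read from the lack of calls for such members.

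Other egg coat genes followed the 21. zpcx, an egg coat gene outside the symbol rule, had 191, 0 and 0 reads in transgenic H replicates 13, 14 and 16, against 0, 10046, 1468 and 431 in wild-type H replicates 5, 6, 7 and 8, and 0 in all M libraries. zpd had 2 reads in transgenic H replicate 13, against 63, 9 and 6 in wild-type H replicates 6, 7 and 8, and 0 in the other libraries. Genes with a zona pellucida domain that are known from other tissues did not follow them. cuzd1.1 had 1586, 746 and 865 CPM in transgenic H replicates 13, 14 and 16, against 2323, 8.17, 293 and 2321 CPM in wild-type H replicates 5, 6, 7 and 8. cuzd1.2 had 904, 421 and 311 CPM in the same transgenic libraries, against 1215, 11.8, 247 and 1081 CPM. OIT3 had 16.6, 0.834 and 16.6 CPM, against 2.64, 12.7, 3.49 and 1.88 CPM. In all, these genes took 0.0951% to 0.342% of counts in 12 libraries. They took 0.00403% and 0.0871% in wild-type H replicates 6 and 7. Of 5 tested, 0 passed the edgeR genotype test within H, where 1.15% of all genes did.

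Genes of a list of oocyte regulators were high in the same 4 libraries as the egg coat genes. The list was chosen with earlier results of these data known, so this is a description. Its genes gave 31.5 reads per 100 egg coat reads in transgenic H replicate 13, against 29.3, 28.7 and 33.6 in wild-type H replicates 6, 7 and 8. buc, which organises the Balbiani body of the oocyte, had 43.7, 0.2085 and 0.424 CPM in transgenic H replicates 13, 14 and 16, against 0.739, 1934, 203 and 83.2 CPM in wild-type H replicates 5, 6, 7 and 8. h1m, a maternal linker histone, had 24.9, 0.417 and 0 CPM, against 0.211, 1445, 139.5 and 72.9 CPM. cldnd, a claudin, had 21.9, 0.521 and 0.1695 CPM, against 0.317, 1068, 151 and 60.9 CPM. None of the 20 tested genes of that list passed the edgeR genotype test within H, where 1.15% of all genes did. The lack of calls therefore says little about the list. Germ cell genes gave 3.91 reads per 100 egg coat reads in transgenic H replicate 13, against 2.84, 2.25 and 2.74 in wild-type H replicates 6, 7 and 8. Of their 8 tested genes 0 passed, beside the same 1.15% of all genes. Among them, DDX4, the Vasa RNA helicase, had 76, 0 and 0 reads in transgenic H, against 3, 2032, 228 and 109 in wild-type H. PIWIL1, a Piwi protein, had 23, 1 and 0, against 5, 1524, 210 and 84, and tdrd7a, a germ granule component, 71, 0 and 0, against 5, 2749, 361 and 117.

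Genes of the ovarian follicle, the somatic cells around the oocyte, were divided. CYP11A1 (ENSDARG00000002347), the first enzyme of steroid synthesis, had 73, 0 and 1 reads in transgenic H replicates 13, 14 and 16, against 5, 3024, 455 and 158 in wild-type H replicates 5, 6, 7 and 8. CYP17A1, a later enzyme of that path, had 44, 1 and 0, against 0, 1907, 280 and 73. hsd20b2, a steroid dehydrogenase, did not follow them, with 228, 256 and 198 reads, against 148, 25, 77 and 210. Of 7 tested follicle genes 1 passed the edgeR genotype test within H, where 0.435% of all genes were called lower. This gene was INHBB (ENSDARG00000040777), an inhibin subunit, chosen here after its values were seen. It was lower in transgenic H, at 1.46, 1.67 and 2.203 CPM, against 13.4, 3.09, 16.4 and 8.40 CPM in wild-type H, with a log2 fold change of -2.53 ± 0.52 (SE, edgeR adjusted p = 0.0366). Averaged over H and M its log2 fold change was -2.16 ± 0.36 (SE, edgeR adjusted p = 0.00407), where 4.21% of all genes were called. Its levels did not follow the egg coat genes, since wild-type H replicate 6 was the lowest wild-type H library.

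Vitellogenins, the yolk precursors that the liver makes under estrogen, had another pattern than the egg coat genes. In transgenic H replicates 13, 14 and 16 their share of counts was 18.2%, 7.95% and 21.03%, against 9.65e-05%, 0.00202%, 0.000547% and 6.18% in wild-type H replicates 5, 6, 7 and 8. The M libraries lay between 5.83e-05% and 0.00104%. vtg1 had 171000, 70570 and 209200 CPM in transgenic H, against 0.106, 10.6, 0.761 and 37020 CPM in wild-type H. vtg2 had 31530, 14500 and 29100 CPM, against 0, 1.09, 0.0634 and 7945 CPM, and vtg5 had 4992, 6476 and 6397 CPM, against 0.317, 1.73, 0.444 and 4619 CPM. Wild-type H replicates 6 and 7 thus had the most egg coat reads and few vitellogenin reads, and transgenic H replicates 14 and 16 the reverse. Several vitellogenin genes are close copies of each other, so single values are uncertain. None of the 8 passed the edgeR genotype test within H, where 1.15% of all genes did. Liver genes took 3.01%, 0.224% and 2.702% of counts in transgenic H, against 0.353%, 1.65%, 1.06% and 0.103% in wild-type H. Of 13 liver genes 0 passed, beside the same 1.15% of all genes. The part of these cell types in the egg coat reads was not tested.

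**Figure D5:**
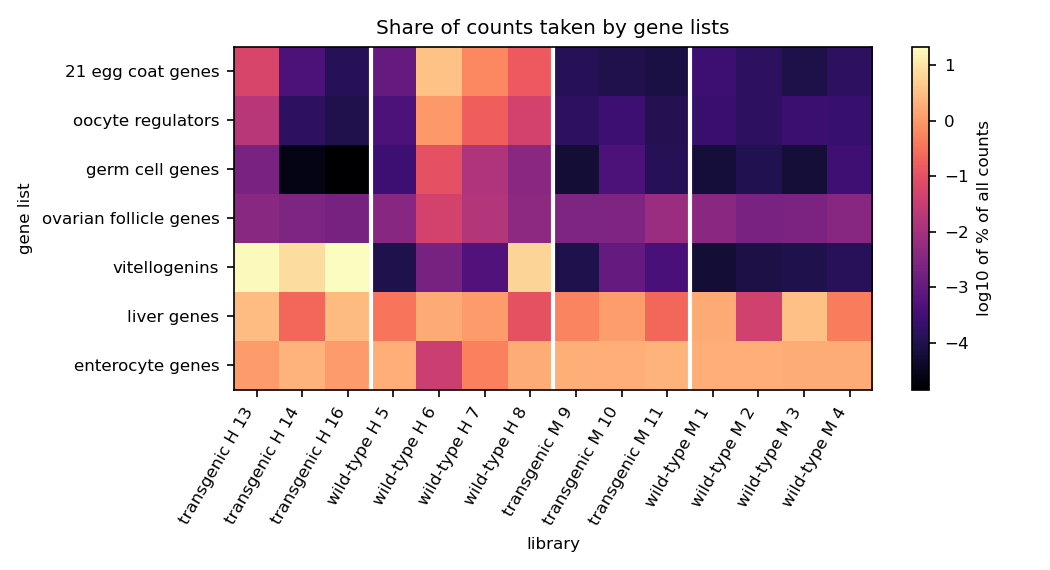
Colour gives log10 of the percentage of counts that each gene list took in each of the 14 libraries. The egg coat, oocyte and germ cell rows are bright in transgenic H replicate 13 and wild-type H replicates 6, 7 and 8, while the vitellogenin row is bright in all 3 transgenic H libraries and in wild-type H replicate 8.

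The genes whose pattern was most like the mean of the 21 were taken by the root mean square difference of log2 CPM, centred on each gene's mean, over the 14 libraries. Only tested genes outside the 21 were named, and genes with clone-type names were left out. The closest were tmsb5 (0.249), ca15b (0.268), cldng (0.272), qdprb.4 (0.337), kpna7 (0.342), slbp2 (0.377), buc2l (0.398), eef1a1l3 (0.410), npm2b (0.411) and org (0.414), where the median of all tested genes was 4.075. The 21 egg coat genes themselves lay at 0.399 (zp3f.1) to 1.42 (zp3d.2) from their mean, so the pattern was not particular to them. tmsb5, a thymosin beta gene, had 11.96, 0.104 and 0 CPM in transgenic H replicates 13, 14 and 16, against 0.106, 532, 55.2 and 26.3 CPM in wild-type H replicates 5, 6, 7 and 8, and 0 in all M libraries. cldng, a claudin, had 20.4, 0.2085 and 0.0847 CPM in transgenic H, against 0.4225, 1019, 131 and 44.8 CPM in wild-type H. npm2b, a nucleoplasmin of the egg, had 8.67, 0 and 0 CPM, against 0.106, 540, 62.3 and 31.7 CPM. The likeness is a description over 14 libraries of which 4 hold nearly all of the reads.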

How the data were processed

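Polyadenylated RNA of zebrafish intestine was measured in 14 libraries made with a stranded kit after Trizol extraction, per the labels' protocols. Per the submitters' processing notes the tools were STAR 2.7.3a, featureCounts 1.6.3, FastQC and edgeR, and the builds named, with no role, were GRCz11, GRCm38.p6 and mm10. The strand setting was not given in the sources used here. The deposited table holds the authors' raw counts per gene. The deposited FPKM values of the authors are those counts divided by gene length and library total, for all 27396 genes with a count within a tolerance of 0.001, so they add no independent information.

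Symbols came from the supplied gene table. Counts were tested in R 4.3.3 with edgeR 4.0.16 (filterByExpr on the 4 groups, TMM, glmQLFit and glmQLFTest on all 14 libraries, Benjamini-Hochberg over 18619 genes, threshold 0.05), giving 4 comparisons, and with DESeq2 1.42.0 as an alternative. The SE is the log2 fold change divided by the root of the F statistic. The other alternatives were other scalings, no filter, H libraries alone and libraries left out. The scripts were tested on simulated data.

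The genes, the gene lists (128 of 143 names matched, in 11 lists) and the alternatives were chosen with earlier results of these data known. All 21 genes are named, with the 3 highest of each list by mean CPM. The 10 genes most like the members, among those without a clone-type name, are named too.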

Additional observations from a re-analysis of the deposited data

Results flagged for a closer look

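Of 44 sets of 4 libraries examined, 1 library stood far from the other 3 in 11, all in wild-type M. In each of the 11 the other 3 libraries had 0 reads. The rule then flags any library with a read, so no chance rate is given and nothing is read from the count of sets. In wild-type M replicate 1 the log2 CPM was -2.06 for zpax4, zp3a.1, zp2.3, zp2.5, zp2.6 and zp2.1, where it had 1 read of each and the other 3 libraries had 0. It was -1.68 for zp3 and -1.38 for zp2.2 in that library, from 2 and 3 reads against 0. In wild-type M replicate 4, zpax2 stood out at -1.94 (1 read) and zp3d.2 at -1.50 (2 reads). In wild-type M replicate 2, zp3d.1 stood out at -1.945 (1 read). Each of these values rests on 1 to 3 reads, so the depth cannot separate them from counting error.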

How the results depend on the processing

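Within H no fitted change of an egg coat gene lay above 0 in any alternative. However, zp3f.1 was at -0.0 ± 2.4 (SE) without wild-type H replicates 6 and 7, which gives no direction. For H against M all fitted changes stayed above 0. The members were selected through their H reads, so nothing is read from that. Averaged over letters 19 of 21 fitted changes were below 0, against 21 with all libraries, both without wild-type H replicate 6 and without replicates 6 and 7. For the difference of genotype effects 19 and 15 were below 0. The gene totals that follow hold both directions. Within H, 214 genes of the whole table were called by edgeR, against 2129 by DESeq2, 372 without wild-type H replicates 6 and 7, and 11 with the H libraries alone. Members called numbered 0, where 0.435% of all genes were called lower, against 5 by DESeq2, where 6.62% were. Leaving out 1 library gave 77 to 1034 genes and 0 to 4 members. Both were highest without wild-type H replicate 5, where 3.63% of all genes were called lower. Averaged over letters, 784 genes were called, against 1834 by DESeq2 and 1474 without wild-type H replicates 6 and 7. Members numbered 0, against 1 by DESeq2, where 4.62% of all genes were called lower. Leaving out 1 library gave 483 to 1435 genes and 0 to 1 member. The 1 member was called without transgenic H replicate 13, where 1.25% of all genes were called lower. With library totals alone, the averaged calls split as 317 higher and 518 lower, against 408 and 376. For H against M, DESeq2 called 349 genes and 19 members against 0, where it called 1.77% of all genes higher. Leaving out 1 library gave 0 to 173 genes and 0 to 17 members. Both were highest without wild-type H replicate 5, where 0.917% of all genes were called higher. The members were selected through their H reads, so nothing is read from these member counts. For the difference of genotype effects DESeq2 called 24 genes against 0, and leaving out 1 library gave 0 to 0 genes and members. As said above, nothing is read from this for members with 0 reads in a whole M group. Mean summed CPM with 1 library left out ran from 3.54 to 345.1 in transgenic H, 1793 to 13220 in wild-type H, 0.928 to 1.09 in transgenic M and 1.32 to 1.91 in wild-type M. The causes were not tested. No paired analysis was possible because the groups share no replicate number.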

Other observations

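Other gene lists gave these values. Genes of testis and sperm took 0.000106% to 0.000187% of counts in transgenic H, against 0.000271% to 0.00140% in wild-type H. Exocrine pancreas genes took 0.216% to 1.72% in transgenic H, against 0.159% to 7.68% in wild-type H. Smooth muscle genes took 0.0515% to 0.112% in transgenic H, against 0.0210% to 0.256% in wild-type H, and erythrocyte genes 0.00237% to 0.00795%, against 0.00767% to 0.0613%. None of the tested enterocyte genes (0 of 19), and none of the tested genes of these 4 lists, passed the edgeR genotype test within H. Of all genes 1.15% passed it. Only 1 of 11 testis and sperm genes was tested, so its lack of a call says little about that list.

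The 3 genes of each remaining list with the highest mean CPM had these levels in H. Of the liver genes, tfa had 1217 to 14970 CPM in transgenic H, against 405 to 7710 CPM in wild-type H. CP had 284 to 4021 CPM in transgenic H, against 104 to 808 CPM in wild-type H. fga had 158 to 2159 CPM in transgenic H, against 72.6 to 2927 CPM in wild-type H. The genotypes overlapped for each of the 3. Of the exocrine pancreas genes, ctrb.1 had 416 to 3257 CPM in transgenic H, against 349 to 9835 CPM in wild-type H. prss59.1 had 414 to 3146 CPM in transgenic H, against 89.8 to 11380 CPM in wild-type H. prss1 had 262 to 2117 CPM in transgenic H, against 233 to 9620 CPM in wild-type H. All 3 were highest in wild-type H replicate 8. Of the enterocyte genes, ANPEP had 2074 to 4883 CPM in transgenic H, against 52.2 to 5088 CPM in wild-type H. VIL1 had 2010 to 3371 CPM in transgenic H, against 124 to 2176 CPM in wild-type H. SLC5A1 had 1507 to 2203 CPM in transgenic H, against 13.4 to 2059 CPM in wild-type H. All 3 were lowest in wild-type H replicate 6. Of the smooth muscle genes, acta2 had 167 to 382 CPM in transgenic H, against 52.5 to 1122 CPM in wild-type H. TAGLN had 76.7 to 209 CPM in transgenic H, against 41.8 to 725 CPM in wild-type H. MYH11 had 147 to 270.2 CPM in transgenic H, against 54.8 to 349 CPM in wild-type H. All 3 were lowest in wild-type H replicate 6 here too. Of the erythrocyte genes, hbaa1 had 26.6 to 82.5 CPM in transgenic H, against 80.8 to 358 CPM in wild-type H. alas2 had 0.417 to 6.39 CPM in transgenic H, against 2.85 to 16.9 CPM in wild-type H. SLC4A1 had 0.104 to 3.898 CPM in transgenic H, against 0.106 to 13.9 CPM in wild-type H. All 3 were highest in wild-type H replicate 7. Of the testis and sperm genes, DCST2 had 14, 7 and 9 reads in transgenic H replicates 13, 14 and 16, against 26, 9, 1 and 25 in wild-type H replicates 5, 6, 7 and 8. SPATA18 had 3, 8 and 3 reads in transgenic H, against 0, 48, 19 and 4 in wild-type H. cimap1b had 0 reads in all 3 transgenic H libraries, against 4, 76, 3 and 1 in wild-type H.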
